A study of Mus musculus with 24 samples.

Results

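Cd72 and 7 receptors of the SLAM family (Slamf7, Slamf8, Slamf9, Cd84, Cd48, Ly9 and Cd244) were followed across 8 groups of myeloid cells sorted from mouse lung, in 24 RNA-seq libraries. Each of the 8 was matched by its gene symbol to 1 row among the 37979 genes of the deposited table, and no symbol was repeated, so no value was needed to choose a row. The list itself was chosen from earlier results on the FPKM values of the same 24 libraries, and which values led to each gene is not recorded. Cd72, which does not belong to the SLAM family, is taken as chosen for its level, so its differences are a description without a test. Tests are given for the other 7 across the whole table, and they describe genes picked with results known.

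The groups were sorted from male C57BL/6 mice, 10 to 16 weeks old, with or without an orthotopic lung tumour: 100000 LLC-Luc cells (Lewis lung carcinoma cells carrying luciferase) placed in the parenchyma of the left lobe. MacB3 cells (CD11b+/Ly6G-/CD64hi/CD11c+) came from tumour lungs at 3 weeks (MacB3-3wk) and 2 weeks (MacB3-2wk). MacB1 cells (CD11b+/Ly6G-/CD64low/CD11c+) came from naive lungs (MacB1-N). MacB2 cells (CD11b+/Ly6G-/CD64med/CD11c-) came from naive lungs (MacB2-N) and from tumour lungs at 2 weeks (MacB2-2wk) and 3 weeks (MacB2-3wk). MacA cells (SiglecF+/CD11c+, the gate of alveolar macrophages) came from tumour lungs at 2 weeks (MacA-2wk) and naive lungs (MacA-N). Each group had 3 libraries, and each library held cells pooled from 3 to 5 mice. Tumour samples were taken from the left lobe and naive samples from all lobes, so lobe and tumour cannot be told apart. The MacA libraries shared sequencing lane 1, and replicates 1, 2 and 3 of each MacB group were run on lanes 2, 3 and 7, so that lane and population cannot be told apart in any comparison of MacB with MacA.

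CD72 is a type II membrane protein with a C-type lectin-like domain, best known from B cells, where an inhibitory tyrosine motif in its tail recruits the phosphatase SHP-1 (Ptpn6). The semaphorin CD100 (Sema4d) is its ligand. SLAM family receptors are immunoglobulin-like proteins of blood cells, and most bind the same molecule on a neighbouring cell. The exception among the genes here is CD244 (2B4), which binds CD48, a lipid-anchored member without a signalling tail. In rodents CD48 is also the ligand of CD2. Several family members carry tyrosine switch motifs in their tails that bind the small adaptors SAP (Sh2d1a) and EAT-2 (Sh2d1b1), whereas SLAMF8 and SLAMF9 have short tails without such motifs.

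The promoter windows of the 3 members with the highest MacB3 to MacB2 ratios at 2 weeks (Cd72, Slamf9 and Slamf7) are shown. These genes did not share a pattern over all groups: Slamf9 averaged 104.7 FPKM in MacA-N cells, where Cd72 and Slamf7 averaged 1.63 and 0.228 FPKM. The windows hold 250 bases before and 50 bases after the RefSeq start on GRCm38.p6 and are written 5′ to 3′ on the strand of the gene. Capitals mark the words found in a search on both strands for GAGGAAGT (a word bound by PU.1, the factor of the myeloid lineage), TGACTCA (AP-1), CACGTG (an E-box), and an interferon response word (GAAA, any 2 bases, GAAA).
Cd72 (chr4:43454577-43454876, minus strand): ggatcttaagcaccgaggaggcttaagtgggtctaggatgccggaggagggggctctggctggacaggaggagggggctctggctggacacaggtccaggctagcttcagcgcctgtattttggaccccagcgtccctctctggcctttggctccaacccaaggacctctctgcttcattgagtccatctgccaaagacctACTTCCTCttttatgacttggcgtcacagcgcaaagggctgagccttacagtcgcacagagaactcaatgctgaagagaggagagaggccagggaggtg
Slamf9 (chr1:172475110-172475409, plus strand): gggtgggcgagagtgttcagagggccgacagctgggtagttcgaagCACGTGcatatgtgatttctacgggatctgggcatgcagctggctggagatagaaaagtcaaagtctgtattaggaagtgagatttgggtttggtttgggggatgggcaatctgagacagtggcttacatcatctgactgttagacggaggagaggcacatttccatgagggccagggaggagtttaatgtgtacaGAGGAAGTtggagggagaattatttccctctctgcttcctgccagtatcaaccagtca
Slamf7 (chr1:171648950-171649249, minus strand): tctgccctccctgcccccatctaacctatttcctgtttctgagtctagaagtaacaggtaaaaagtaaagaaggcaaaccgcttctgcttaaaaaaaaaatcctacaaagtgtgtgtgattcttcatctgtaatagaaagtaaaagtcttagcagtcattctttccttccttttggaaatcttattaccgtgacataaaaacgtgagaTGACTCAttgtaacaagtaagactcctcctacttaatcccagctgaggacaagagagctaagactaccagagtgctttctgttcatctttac
The PU.1 word began 49 bases upstream of the Cd72 start, on the opposite strand as ACTTCCTC, and 8 bases upstream of the Slamf9 start. It was present in 3.2% of the 32851 promoter windows of the table. The AP-1 word began 42 bases upstream of the Slamf7 start and was present in 5.2% of windows. Slamf9 also held an E-box word, 204 bases upstream of its start, a word found in 7.15% of windows. Among the other members with a window, Slamf8 held the AP-1, E-box and interferon words, Cd84 the AP-1 word and Cd244 the AP-1 and E-box words, while the Cd48 window held none of the 4. The interferon word was present in 3.44% of windows. RefSeq windows were matched for 9 of the 11 family genes considered (the 8 members with Slamf1, Slamf6 and Cd2), with none for Ly9 and Cd2. A match in letters is a description and not evidence of binding, and the Slamf7 window lies inside the longer gene of GENCODE M21.

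Values were FPKM, fragments per length of transcript and size of library, a scale on which levels of different genes can be compared per length. Summed FPKM ran from 1880236 (MacA-N replicate 1) to 4868372 (MacA-2wk replicate 3). The protein-coding share of that sum ran from 10.3% (MacA-2wk replicate 3) to 27.6% (MacB3-2wk replicate 1). The values as printed and the main fit are not adjusted for these differences between libraries. Relative depth, read from the spacing of low values, spanned 0.518 (MacB2-2wk replicate 3) to 1 (MacA-N replicate 1), between 15599 and 18522 genes were above 0 per library, and the number of reads behind a library is not known. Among the genes of the sorting markers, Siglecf and Itgax followed the gates over all groups, and Fcgr1 did between MacB3 and MacB1-N cells. Fcgr1 in the other groups and Itgam (CD11b) are not reported here. Siglecf had 125 to 303 FPKM in MacA libraries and at most 8.77 FPKM in all others. Itgax (CD11c) averaged 71.2 to 214 FPKM in the CD11c+ groups and 7.34 to 12.01 FPKM in the MacB2 groups. Fcgr1 (CD64) averaged 130.5 and 181 FPKM in MacB3-3wk and MacB3-2wk cells against 9.54 FPKM in MacB1-N cells. Ly6g was listed at 0 throughout, which cannot tell absence from a gene that was not measured. A sum of 10 neutrophil markers ran from 77.3 FPKM in a MacA-2wk library to 1273 FPKM in a MacB2-3wk library. Differences were fitted with limma on log2(FPKM + 1) over all 24 libraries. A difference was called when its p-value, adjusted by Benjamini-Hochberg over 17156 genes, was below 0.05 and it reached 2-fold. Fold changes on this scale understate those of low genes. All 8 members passed the filter on low values, which kept genes whose mean reached 1 FPKM in any group.

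Cd72 was highest in the MacB3 gate. It had 397, 449.7 and 467 FPKM in MacB3-3wk libraries and 447, 385 and 614 FPKM in MacB3-2wk libraries. It had 35.7, 29.9 and 46.1 FPKM in MacB1-N libraries, the highest of the naive groups. All 6 MacB3 libraries stood above all 18 others, with a gap from 46.1 FPKM in a MacB1-N library to 385 FPKM in a MacB3-2wk library. The MacB2 groups had 7.87, 7.703 and 1.58 FPKM (MacB2-N), 14.5, 16.6 and 35.9 FPKM (MacB2-2wk) and 44.5, 35.7 and 29.5 FPKM (MacB2-3wk). Both tumour stages of MacB2 therefore lay above naive MacB2 without overlap. In MacA cells Cd72 was near the bottom of the scale, with 6.35, 0.756 and 2.27 FPKM in MacA-2wk libraries and 2.601, 0 and 2.29 FPKM in MacA-N libraries, and those groups overlapped. In bulk samples, fewer cells of a type and less RNA per cell cannot be told apart.

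**Figure D1:**
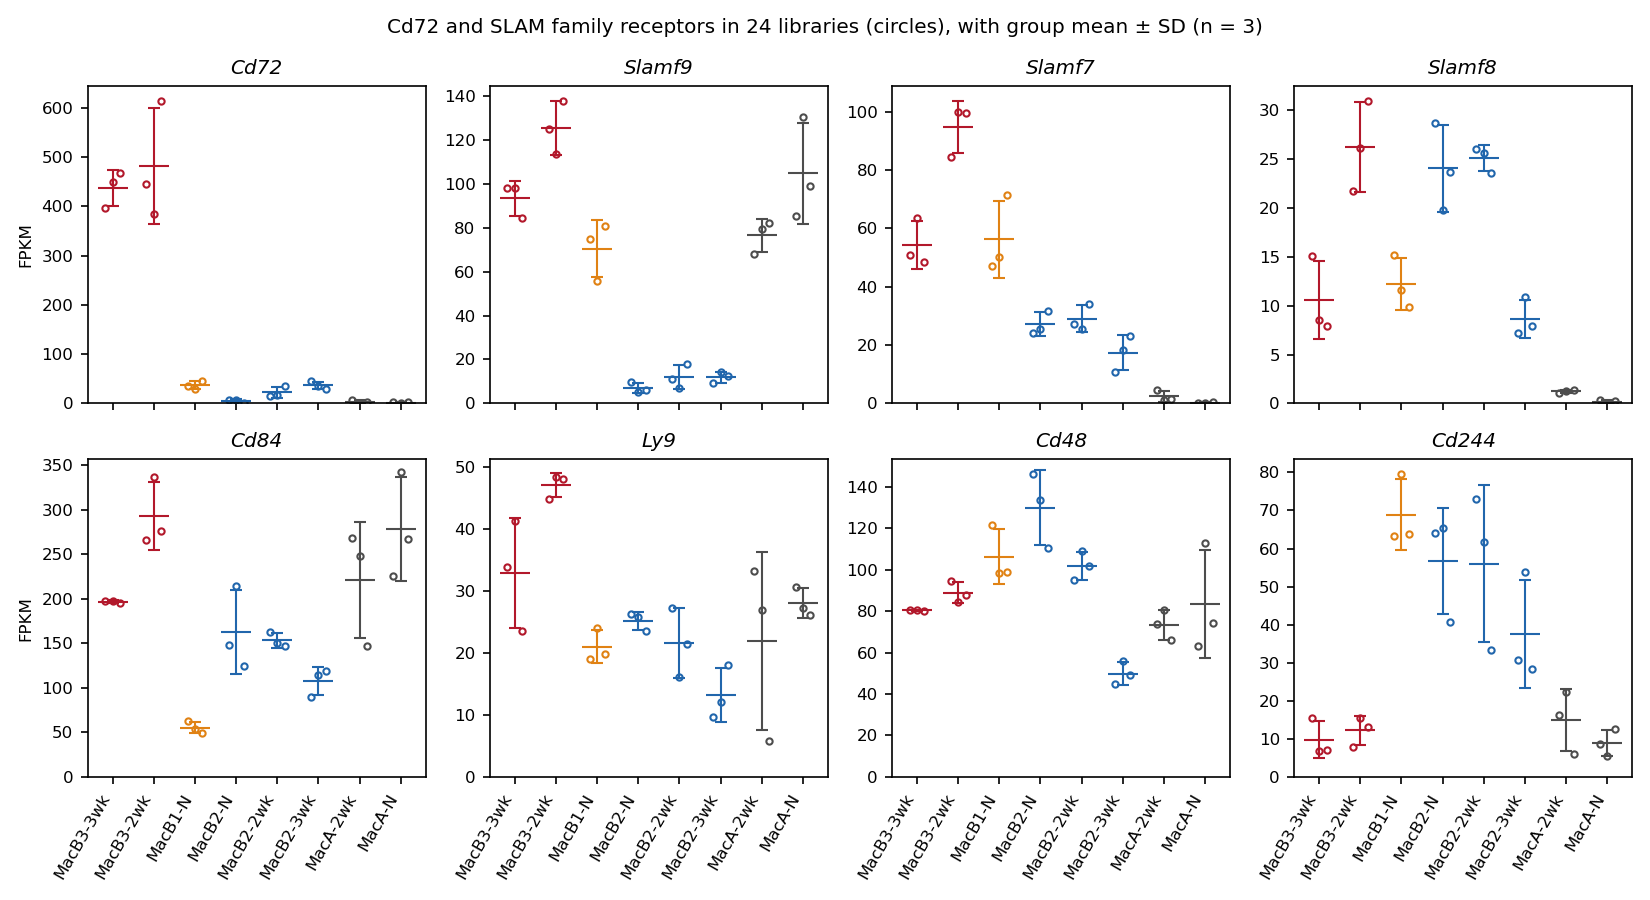
FPKM of the 8 genes in each of 24 libraries (open circles, replicates 1 to 3 from left to right), with the mean and SD of each group of 3 (horizontal and vertical bars). Cd72 is between 385 and 614 FPKM in the 6 MacB3 libraries and at most 46.1 FPKM elsewhere, whereas Slamf9 is low in the MacB2 groups alone and Cd244 is low in the MacB3 and MacA groups.

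In ratios of means, Cd72 was 21.6-fold higher in MacB3-2wk than in MacB2-2wk cells (482 ± 118 against 22.3 ± 11.8 FPKM, SD, n = 3 each). At 3 weeks the ratio of MacB3 to MacB2 was 11.98 (438 ± 36.4 against 36.6 ± 7.56 FPKM, SD, n = 3 each). Against naive MacB1 cells, which share the CD11b+/CD11c+ gate but stain low for CD64, the MacB3-2wk mean was 12.9-fold higher. The MacB3 level did not separate the stages: the MacB3-3wk and MacB3-2wk libraries overlapped, with a log2 difference of -0.11. Within the lanes, MacB3-2wk minus MacB2-2wk came to 4.85, 4.45 and 4.06 on the log2 scale in lanes 2, 3 and 7, and MacB3-3wk minus MacB2-3wk to 3.13, 3.62 and 3.94, so the difference was present in each lane. In MacB2 cells the 3-week mean was 6.39-fold the naive mean (36.6 ± 7.56 against 5.72 ± 3.58 FPKM, SD, n = 3 each), with log2 differences from naive of 1.89 at 2 weeks and 2.67 at 3 weeks. In order of mean level, MacB3-2wk and MacB3-3wk led and overlapped. MacB1-N, MacB2-3wk and MacB2-2wk followed with each neighbour overlapping the next, and MacB2-N lay below them. MacA-2wk and MacA-N had the lowest means, but the MacB2-N libraries overlapped those of both MacA groups.

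Cd72 is best known from B cells. Summed over 11 B cell markers, the level was 12.97 to 18.9 FPKM in MacB3-3wk and 10.1 to 10.8 FPKM in MacB3-2wk libraries, against 13.4 to 26 FPKM in MacB2-3wk and 17.5 to 37.4 FPKM in MacB2-2wk libraries, and it was highest in MacB1-N libraries, at 39.3 to 61.4 FPKM. Ms4a1 (CD20) averaged 0.119 and 0.169 FPKM in MacB3-3wk and MacB3-2wk cells. A summed list of 10 macrophage markers moved with Cd72 between MacB3 and MacB2 cells of tumour lungs. It was 8927 to 11530 FPKM in MacB3-3wk and 8122 to 10020 FPKM in MacB3-2wk libraries, against 2467 to 3904 FPKM in MacB2-3wk and 2294 to 2757 FPKM in MacB2-2wk libraries. Between the naive MacB groups it ran the other way, at 1306 to 1827 FPKM in MacB1-N and 1838 to 2900 FPKM in MacB2-N libraries. The part of either list in the level of Cd72 was not tested.

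The partners of CD72 were examined as a list of 10 genes (its ligand, plexins, and kinases, phosphatase and adaptors of its pathway), all of which were tested. In MacB3-2wk against MacB2-2wk cells 1 of the 10 was called, where 7.36% of all genes were called in either direction. It was Blnk, named here after its values were seen, the adaptor that links the B cell receptor to its kinases. Blnk had 39.1, 33.5 and 33.4 FPKM in MacB3-2wk libraries, against 3.28, 3.63 and 3.400 FPKM in MacB2-2wk libraries, a log2 fold change of 3.03 ± 0.27 (SE; limma, adjusted p = 5.85e-07). It was also the 1 gene of the 10 called at 3 weeks, where 1.61% of all genes were called higher and 1.03% lower. At that stage Blnk averaged 37.1 FPKM in MacB3-3wk and 5.31 FPKM in MacB2-3wk cells (log2 fold change 2.59, limma, adjusted p = 8.53e-06). Blnk averaged 14.1 FPKM in MacB1-N cells and at most 1.65 FPKM in the MacA groups, and so ran in the same order of populations as Cd72. Sema4d, the ligand, was high in every MacB group, at 61.2 to 141.6 FPKM on average, and low in MacA-2wk and MacA-N cells, at 7.17 and 3.98 FPKM. Between MacB3-2wk and MacB2-2wk cells its log2 difference was -0.17 and was not called (limma, adjusted p = 0.693). The gene of the phosphatase, Ptpn6, the highest of the list, averaged 716 FPKM in MacB3-2wk and 681 FPKM in MacB2-2wk cells, with no call (limma, adjusted p = 0.989).

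The 7 SLAM genes did not move as a block with Cd72. In MacB3-2wk against MacB2-2wk cells, 2 of the 7 rose (Slamf9 and Slamf7) and 1 fell (Cd244), where 3.15% of all genes tested were called higher and 4.21% lower. At 3 weeks the same counts, 2 higher and 1 lower, came from the same 3 genes, where 1.61% of all genes were called higher and 1.03% lower. The median log2 difference of the 7 was 0.924 at 2 weeks, against -0.075 over all genes tested, and 0.876 at 3 weeks, against -0.042 over all genes tested. Markers of several cell types moved with these differences: 5 of 10 macrophage markers were called higher at 2 weeks, and 6 of 6 classical monocyte markers were called lower, with sums of 747 to 977 FPKM in MacB3-2wk and 2911 to 3130 FPKM in MacB2-2wk libraries. Also called lower at 2 weeks were 5 of 10 endothelial markers, with sums of 56.2 to 101 FPKM in MacB3-2wk and 172 to 505 FPKM in MacB2-2wk libraries, 3 of 9 dendritic cell markers, and 2 of 10 epithelial and 2 of 10 fibroblast markers. Neutrophil sums were 142 to 373 FPKM in MacB3-2wk and 529 to 808 FPKM in MacB2-2wk libraries, and plasmacytoid dendritic cell sums 568 to 733 FPKM in MacB3-2wk and 276 to 363 FPKM in MacB2-2wk libraries. At 3 weeks 6 of 10 macrophage markers were called higher and 5 of 6 classical monocyte markers lower. Their part in the SLAM differences was not tested.

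Slamf9, a short-tailed receptor of macrophages and dendritic cells, had the largest difference of the 7 between these gates. It had 125, 113 and 138 FPKM in MacB3-2wk libraries, against 11.02, 7.09 and 17.7 FPKM in MacB2-2wk libraries. The groups were far apart, with a log2 fold change of 3.37 ± 0.26 (SE; limma, adjusted p = 8.8e-08). At 3 weeks it had 97.99, 98.1 and 84.2 FPKM in MacB3-3wk libraries, against 9.31, 14.1 and 12.3 FPKM in MacB2-3wk libraries, again without overlap (log2 fold change 2.89 ± 0.26, SE; limma, adjusted p = 1.52e-06). Slamf9 was not restricted to MacB3, however. It had 74.6, 55.9 and 80.8 FPKM in MacB1-N libraries, 68.1, 79.5 and 82.1 FPKM in MacA-2wk libraries and 85.1, 130.2 and 98.8 FPKM in MacA-N libraries. Every library of a CD11c+ gate, at 55.9 FPKM or more, lay above every library of the CD11c- gate, at 17.7 FPKM or less. MacB2-N libraries were lowest, with 9.57, 5.399 and 5.93 FPKM.

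Slamf7 (CRACC, CD319), a self-binding receptor that signals through EAT-2 in NK cells and has been tied to phagocytosis in macrophages, was graded across the populations. It had 84.3, 100 and 99.7 FPKM in MacB3-2wk libraries, against 27.2, 25.5 and 34.2 FPKM in MacB2-2wk libraries (log2 fold change 1.68 ± 0.29, SE; limma, adjusted p = 0.000836). At 3 weeks it had 50.8, 63.7 and 48.5 FPKM in MacB3-3wk libraries, against 10.9, 18.4 and 22.9 FPKM in MacB2-3wk libraries (log2 fold change 1.64 ± 0.29, SE; limma, adjusted p = 0.00239). Neither pair of groups overlapped, and the 3-week call was lost when only its 6 libraries were fitted (adjusted p = 0.0609). MacB1-N libraries, at 47.2, 50.2 and 71.5 FPKM, overlapped MacB3-3wk. The MacA groups were lowest, with 4.47, 1.18 and 1.48 FPKM in MacA-2wk and 0.234, 0.0983 and 0.353 FPKM in MacA-N libraries.

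Cd244 ran the other way. It had 7.89, 15.4 and 13.2 FPKM in MacB3-2wk libraries, against 73.05, 61.8 and 33.2 FPKM in MacB2-2wk libraries. All 3 MacB3 libraries were below the lowest MacB2 library, and the mean fell to 12.2 FPKM, against 56.04 FPKM (log2 fold change -2.09 ± 0.43, SE; limma, adjusted p = 0.00338). At 3 weeks it had 15.4, 6.88 and 6.99 FPKM in MacB3-3wk libraries, against 30.6, 53.8 and 28.2 FPKM in MacB2-3wk libraries (log2 fold change -1.87 ± 0.43, SE; limma, adjusted p = 0.0159). Cd244 was lower in each lane at both stages. Fitting the compared groups alone gave limma adjusted p = 0.0544 at 2 weeks and 0.0918 at 3 weeks, and the 3-week call was also lost without MacB2-3wk replicate 2 (adjusted p = 0.0914), MacB3-3wk replicate 2 (0.0839) or MacB3-3wk replicate 3 (0.0853). Reads of Cd244 and Ly9, which overlap on opposite strands, may be mixed, since the sources do not say whether quantification used strand. CD244 is a marker of NK cells. The summed level of 9 NK cell markers was 2.05 to 2.84 FPKM in MacB3-3wk and 2.83 to 7.90 FPKM in MacB3-2wk libraries, against 1.82 to 5.38 FPKM in MacB2-3wk and 4.23 to 22.1 FPKM in MacB2-2wk libraries, and Ncr1 (NKp46) averaged at most 0.915 FPKM in any group. The ranges of the NK cell sums overlapped at both stages. Of 5 NK cell markers tested, 1 was called lower and none higher at 2 weeks, where 4.21% of all genes were called lower. Their median log2 difference was -0.864, against -0.075 over all genes tested. At 3 weeks none was called, with a median of -0.122, against -0.042 over all genes tested. The part of NK cells in the differences was not tested.

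Of the other 4 SLAM members, none was called between MacB3 and MacB2 at either stage. Cd84, a self-binding receptor of many leukocytes and platelets and the highest of the 7 in MacB3 cells, had 266, 337 and 276 FPKM in MacB3-2wk libraries, against 163, 149.9 and 147 FPKM in MacB2-2wk libraries. The groups did not overlap, and the difference passed the p threshold but stayed below 2-fold (log2 fold change 0.92 ± 0.22, SE; limma, adjusted p = 0.0109). At 3 weeks Cd84 had 197, 198 and 195 FPKM in MacB3-3wk libraries, against 89.3, 114 and 119 FPKM in MacB2-3wk libraries (0.88 ± 0.22, SE, on the log2 scale; limma, adjusted p = 0.0317). Ly9 (CD229), another self-binding receptor, had 44.9, 48.4 and 48.1 FPKM in MacB3-2wk libraries, against 27.3, 16.03 and 21.4 FPKM in MacB2-2wk libraries. Its groups did not overlap either, yet the fit gave adjusted p = 0.0854 in limma for a log2 fold change of 1.12 ± 0.403 (SE), and the 2 compared groups fitted alone gave adjusted p = 0.049. At 3 weeks Ly9 had 33.9, 41.3 and 23.5 FPKM in MacB3-3wk libraries, against 9.57, 12.1 and 17.98 FPKM in MacB2-3wk libraries (adjusted p = 0.101 in limma).
Slamf8, a short-tailed member known in mouse macrophages for restraining the phagocyte oxidase, had 21.7, 26.1 and 30.9 FPKM in MacB3-2wk libraries, against 26.03, 25.7 and 23.6 FPKM in MacB2-2wk libraries. Those groups overlapped, as did the 3-week groups, with log2 differences of 0.05 ± 0.23 at 2 weeks and 0.22 ± 0.23 at 3 weeks (SE). Cd48 was lower without overlap at 2 weeks, at 94.5, 84.3 and 87.97 FPKM in MacB3-2wk against 95.3, 109 and 102 FPKM in MacB2-2wk libraries, by a difference that did not pass the test (-0.19 ± 0.17, SE, log2 scale; limma, adjusted p = 0.539). At 3 weeks it was 1.61-fold higher in MacB3-3wk than in MacB2-3wk cells, at 80.8, 80.5 and 80.2 FPKM against 44.7, 55.9 and 48.99 FPKM (limma, adjusted p = 0.0313). Across the 7, the groups were apart and higher in MacB3 for 4 genes at 2 weeks and 5 at 3 weeks, where 11.4% and 9.85% of all genes tested stood apart in that direction. They were apart and lower for 2 genes at 2 weeks (Cd48 and Cd244) and 1 at 3 weeks (Cd244), where 16.7% and 14.2% of all genes were.

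**Figure D2:**
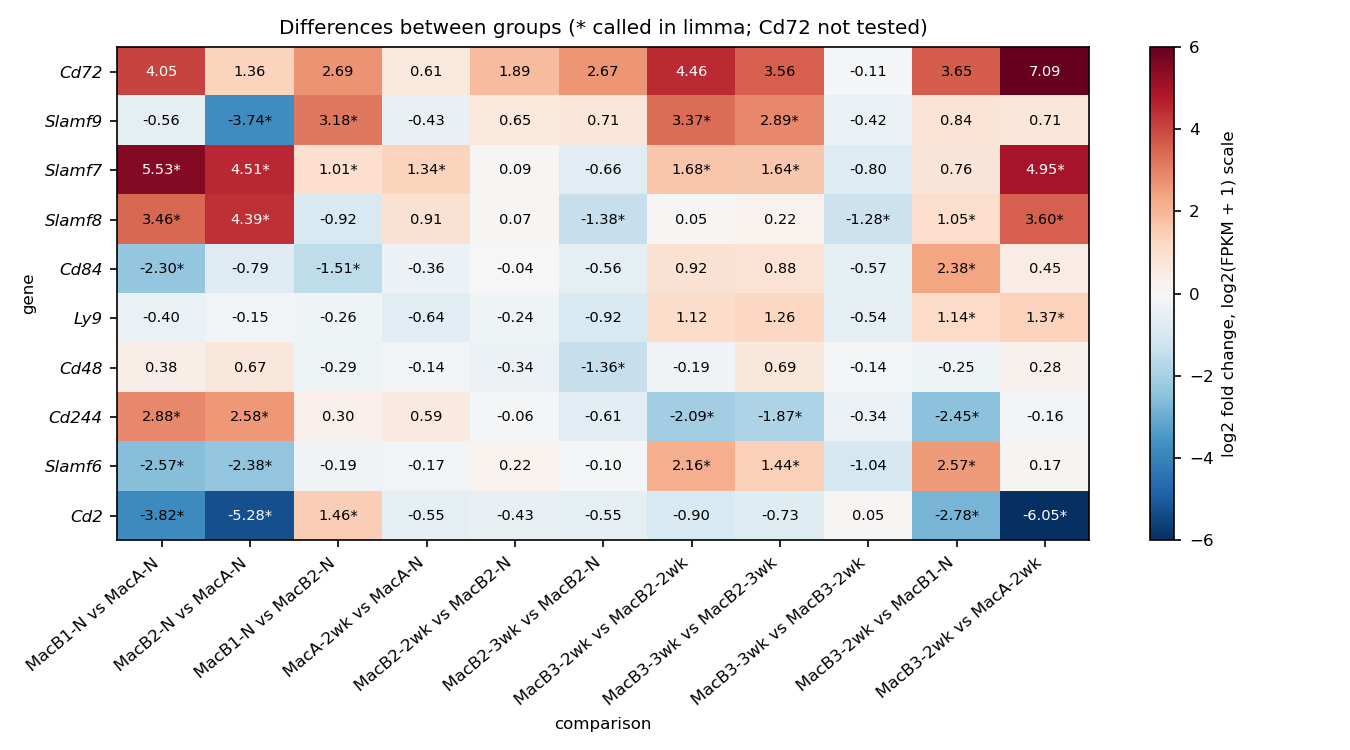
Log2 fold changes on the log2(FPKM + 1) scale for Cd72, the 7 SLAM members, Slamf6 and Cd2 (rows) in 11 comparisons (columns, first-named group over second). Asterisks mark differences called in limma (adjusted p below 0.05 over 17156 genes and at least 2-fold), and Cd72 carries none because it was not tested. Slamf9 and Slamf7 carry asterisks as higher and Cd244 as lower in both MacB3 against MacB2 columns.

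Between the tumour stages of MacB3, most SLAM genes were lower at the later one, and 1 passed the test. In MacB3-3wk against MacB3-2wk cells 6 of the 7 were lower without overlap (Slamf7, Slamf8, Slamf9, Cd84, Cd48 and Ly9), where 6.46% of all genes tested were, and Cd244 overlapped. Their fold changes were small, and in limma 1 of the 7 was called, where 0.0350% of all genes were called lower. It was Slamf8, which had 15.1, 8.58 and 7.96 FPKM in MacB3-3wk libraries, against 21.7, 26.1 and 30.9 FPKM in MacB3-2wk libraries (log2 fold change -1.28 ± 0.23, SE; limma, adjusted p = 0.0202). That call was lost in 6 of 12 alternative settings, with adjusted p as high as 0.195, among them the fits without MacB3-2wk replicate 2 (adjusted p = 0.0916) or 3 (0.0756) and without MacB3-3wk replicate 2 (0.0868) or 3 (0.0993). Slamf7 averaged 54.3 ± 8.18 FPKM in MacB3-3wk and 94.7 ± 8.97 FPKM in MacB3-2wk cells (SD, n = 3 each), with adjusted p = 0.352 in limma. The median log2 difference of the 7 was -0.541, against 0.008 over all genes tested. Classical monocyte markers moved too, with 2 of 6 called lower and sums of 299 to 632 FPKM in MacB3-3wk and 747 to 977 FPKM in MacB3-2wk libraries, and their part was not tested.

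Set against naive MacB1 cells, which share CD11b and CD11c with MacB3, 3 of the 7 were higher in MacB3-2wk cells and 1 was lower, where 8.32% of all genes were called higher and 13.1% lower. Cd84 had the largest rise: 266, 337 and 276 FPKM in MacB3-2wk libraries, against 62.5, 53.7 and 49.5 FPKM in MacB1-N libraries, a 5.305-fold ratio of means (log2 fold change 2.38 ± 0.22, SE; limma, adjusted p = 2.43e-07). Slamf8 rose to 26.2 FPKM in MacB3-2wk cells, against 12.2 FPKM in MacB1-N cells (limma, adjusted p = 0.00189), just past 2-fold, and slipped below 2-fold without MacB1-N replicate 3 or MacB3-2wk replicate 3, at 0.918 and 0.927 on the log2 scale. Ly9 averaged 47.1 ± 1.94 FPKM in MacB3-2wk and 20.98 ± 2.64 FPKM in MacB1-N cells (SD, n = 3 each; limma, adjusted p = 0.0396), a call lost in 7 of 12 settings, including each fit that left out 1 of the 6 libraries, with adjusted p of up to 0.0968. Cd244 was 5.66-fold lower, at 7.89, 15.4 and 13.2 FPKM in MacB3-2wk against 63.2, 79.7 and 63.7 FPKM in MacB1-N libraries (log2 fold change -2.45 ± 0.43, SE; limma, adjusted p = 0.000268). Slamf7 and Slamf9 were higher in MacB3-2wk cells as well, but below 2-fold (0.76 and 0.84 on the log2 scale). Cd48 was lower, at 0.836 of the MacB1-N mean, and was not called. MacB1-N libraries also carried the highest sums of NK cell markers (22.5 to 45.8 FPKM) and of 11 dendritic cell markers (791 to 1022 FPKM, against 34.2 to 92.3 FPKM in MacB3-2wk libraries). In MacB3-2wk cells 8 of 10 macrophage and 4 of 6 classical monocyte markers were called higher, and 10 of 10 endothelial, 7 of 10 epithelial, 7 of 9 dendritic cell and 5 of 10 fibroblast markers lower. The part of these in the differences was not tested.

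Against the other CD11c+ macrophages of the tumour lung, the MacA-2wk cells, 3 of the 7 were called higher in MacB3-2wk cells and none lower, where 7.20% and 7.28% of all genes were. Slamf7 and Slamf8 made the large differences, with log2 fold changes of 4.95 ± 0.29 and 3.599 ± 0.23 (SE; limma, adjusted p = 4.4e-10 and 1.32e-09). Slamf8 had 21.7, 26.1 and 30.9 FPKM in MacB3-2wk libraries, against 1.07, 1.26 and 1.36 FPKM in MacA-2wk libraries. Ly9 was called at 1.37 (limma, adjusted p = 0.0194), but MacA-2wk replicate 3 was far below its partners, at 33.1, 27 and 5.75 FPKM in MacA-2wk libraries, and without it the log2 difference was 0.638 (adjusted p = 0.0773). Of the 24 libraries, that replicate had the lowest protein-coding share of FPKM, at 10.3%. The call was also lost without MacB3-2wk replicate 2 or 3 and with the compared groups alone (adjusted p = 0.0508, 0.0551 and 0.269). Slamf9, Cd84, Cd48 and Cd244 were not called, with log2 differences between -0.16 and 0.71. Cd72 itself differed by 7.09 on that scale. With these differences 6 of 6 classical monocyte markers were called higher, with sums of 747 to 977 FPKM in MacB3-2wk and 21.7 to 40.8 FPKM in MacA-2wk libraries, as were 6 of 10 macrophage markers, and their part was not tested.

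In the naive lung, Slamf7, Slamf8 and Cd244 separated both MacB populations from MacA cells. In MacB1-N against MacA-N cells 3 of the 7 were higher and 1 lower, where 15.0% of all genes were called higher and 8.71% lower, and in MacB2-N against MacA-N cells again 3 were higher and 1 lower, where 10.7% and 10.2% of all genes were. The higher genes were the same 3 in both comparisons, which share the MacA-N libraries. Slamf7 rose by 5.53 in MacB1-N and 4.51 in MacB2-N cells on the log2 scale, and Slamf8 by 3.46 and 4.39 (limma, adjusted p of at most 1.24e-09). Slamf8 had 28.7, 19.8 and 23.6 FPKM in MacB2-N libraries, against 0.327, 0 and 0.249 FPKM in MacA-N libraries, 1 of them listed at 0. Cd244 had 63.2, 79.7 and 63.7 FPKM in MacB1-N libraries and 64, 65.4 and 40.7 FPKM in MacB2-N libraries, against 8.68, 5.49 and 12.4 FPKM in MacA-N libraries, without overlap. The lower gene differed: Cd84 in MacB1-N cells (62.5, 53.7 and 49.5 FPKM, against 226, 342 and 267 FPKM in MacA-N libraries; log2 fold change -2.298 ± 0.22, SE; limma, adjusted p = 1.6e-07) and Slamf9 in MacB2-N cells (log2 fold change -3.74 ± 0.26, SE; limma, adjusted p = 1.48e-09). Of the classical monocyte markers, 5 of 6 were called higher in MacB1-N and 6 of 6 in MacB2-N than in MacA-N cells. In MacB1-N cells 8 of 9 dendritic cell, 9 of 10 endothelial and 8 of 10 fibroblast markers were also called higher, with 1 fibroblast marker lower. Of 10 macrophage markers, 5 were called higher and 3 lower in MacB1-N cells, and 7 higher and 1 lower in MacB2-N cells. NK cell markers were called higher for 2 of 5 in MacB1-N and 1 of 5 in MacB2-N cells. Their sums were 22.5 to 45.8 FPKM in MacB1-N, 4.996 to 17.3 FPKM in MacB2-N and 2.81 to 4.39 FPKM in MacA-N libraries. In MacB1-N cells 5 of 11 T cell and 4 of 8 B cell markers were called higher. The part of these markers was not tested.

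The naive MacB populations, which share the same lanes, differed in 3 of the 7: Slamf9 and Slamf7 were higher and Cd84 lower in MacB1-N than in MacB2-N cells, where 3.50% of all genes were called higher and 1.70% lower. Slamf9 was 10.1-fold higher in the ratio of means (70.4 ± 12.98 FPKM in MacB1-N, 6.97 ± 2.27 FPKM in MacB2-N cells, SD, n = 3 each; log2 fold change 3.18 ± 0.26, SE; limma, adjusted p = 2.07e-07). Cd84 was lowest of all groups in MacB1-N cells and had 148, 215 and 124 FPKM in MacB2-N libraries (log2 fold change -1.51 ± 0.22, SE; limma, adjusted p = 0.000202, or 0.0549 with the compared groups alone). The Slamf7 difference (1.01, adjusted p = 0.0402 in limma) lay at both thresholds and was lost in 10 of 12 settings, 5 of them fits that left out a library (MacB1-N replicate 1, 2 or 3, or MacB2-N replicate 1 or 2), with adjusted p of up to 0.176 without MacB1-N replicate 3. The Slamf7 libraries of MacB1-N and MacB2-N did not overlap. Slamf8 was lower without overlap, at 15.1, 11.6 and 9.898 FPKM in MacB1-N against 28.7, 19.8 and 23.6 FPKM in MacB2-N libraries, but below 2-fold (-0.92 ± 0.23, SE, log2 scale; limma, adjusted p = 0.0168), and was called in 3 of 12 settings. Of the cell type markers, 6 of 6 for classical monocytes and 3 of 10 for macrophages were called lower in MacB1-N cells and 4 of 9 for dendritic cells higher, and their part was not tested.

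With a tumour in the lung, Cd48 and Slamf8 fell in MacB2 cells at 3 weeks, and no SLAM member was called at 2 weeks. None of the 7 was called in MacB2-2wk against MacB2-N cells in limma, where 1.88% of all genes were called, and 1 of the 7 (Slamf9) had an unadjusted p below 0.05, as had 14.8% of all genes. At 3 weeks 2 of the 7 were lower and none higher, where 5.04% of all genes were called lower and 9.67% higher. Cd48 had 146, 134 and 110.5 FPKM in MacB2-N, 95.3, 109 and 102 FPKM in MacB2-2wk and 44.7, 55.9 and 48.99 FPKM in MacB2-3wk libraries, with no overlap between any of the 3 stages (log2 fold change at 3 weeks -1.36 ± 0.17, SE; limma, adjusted p = 1.69e-05). Slamf8 had 28.7, 19.8 and 23.6 FPKM in MacB2-N, 26.03, 25.7 and 23.6 FPKM in MacB2-2wk and 7.17, 10.9 and 7.96 FPKM in MacB2-3wk libraries, so that only the last stage was apart (log2 fold change -1.38 ± 0.23, SE; limma, adjusted p = 0.000243). Slamf7, Cd84 and Ly9 were also lower without overlap at 3 weeks but were not called (log2 differences -0.66, -0.56 and -0.92). In all, 5 of the 7 were lower and apart, where 15.2% of all genes were. Cd72 was higher in the same 3-week libraries, by 2.67 on the log2 scale. Other transcripts moved with these values: a sum of 10 fibroblast markers was 755.7 to 1369 FPKM in MacB2-N, 1209 to 1421 FPKM in MacB2-2wk and 1924 to 2447 FPKM in MacB2-3wk libraries, and a sum of 6 classical monocyte markers in the table was 3344 to 4574, 2911 to 3130 and 1453 to 1655 FPKM in the same order. A sum of 10 epithelial markers was 3228 to 10330 FPKM in MacB2-N, 425 to 2475 FPKM in MacB2-2wk and 614 to 876 FPKM in MacB2-3wk libraries. At 3 weeks 2 of the 10 epithelial markers were called higher and 3 lower. Calls higher and lower were 5 and 1 for fibroblast, 1 and 4 for classical monocyte, and 2 and 1 for neutrophil markers. Neutrophil sums were 231 to 271 FPKM in MacB2-N and 497 to 1273 FPKM in MacB2-3wk libraries. Plasma cell sums were 21.9 to 32 and 92.9 to 162 FPKM in the same order. Of endothelial and dendritic cell markers, 3 of 10 and 3 of 9 were called lower and none higher. Their part in the lower SLAM levels was not tested.

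In MacA cells 1 of the 7 was called with a tumour at 2 weeks, where 0.787% of all genes were called. Slamf7 had 4.47, 1.18 and 1.48 FPKM in MacA-2wk libraries, against 0.234, 0.0983 and 0.353 FPKM in MacA-N libraries, a log2 fold change of 1.34 ± 0.29 (SE; limma, adjusted p = 0.0299). The groups were apart, but the level stayed far below that of any MacB group. With it, 4 of 10 macrophage markers and 1 of 6 classical monocyte markers were called higher, the monocyte sum being 21.7 to 40.8 FPKM in MacA-2wk and 7.51 to 12.7 FPKM in MacA-N libraries, and their part was not tested. The call was lost in 6 of 12 settings, including quantile normalization (adjusted p = 0.131), the compared groups alone (0.509), and leaving out MacA-2wk replicate 1 (0.108) or MacA-N replicate 1 (0.096), 2 (0.126) or 3 (0.0706). No SLAM member was called in the test of whether the 2-week tumour difference itself differed between MacB2 and MacA (limma; 0.221% of all genes were called, and 3 of the 7 and 9.86% of all genes had an unadjusted p below 0.05), or of whether the MacB3 to MacB2 difference differed between weeks (1 of the 7, Cd48, had an unadjusted p below 0.05; of all genes 0% were called and 6.53% had an unadjusted p below 0.05).

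The transcripts of the CD48 receptors, Cd244 and Cd2, were highest in different populations. The groups with the most Cd48 (MacB2-N, MacB1-N and MacB2-2wk cells) were also those with the most Cd244. The order did not hold below them: MacB3-2wk cells, next in Cd48 at 88.9 FPKM, averaged 12.2 FPKM of Cd244. Over the 24 libraries Pearson's r between Cd48 and Cd244 was 0.335 on log2(FPKM + 1). Cd48 was present in every group, at 49.9 FPKM on average in MacB2-3wk cells to 130.1 FPKM in MacB2-N cells, and varied least of the members. Cd244 was highest in MacB1-N and MacB2 cells, at 68.9 FPKM in MacB1-N, 56.7 FPKM in MacB2-N, 56.04 FPKM in MacB2-2wk and 37.5 FPKM in MacB2-3wk cells, neighbours that overlapped in this order. It was lowest in MacA-2wk, MacB3-2wk, MacB3-3wk and MacA-N cells, at 14.9 to 8.87 FPKM, and every one of these libraries lay below every MacB1 and MacB2 library.
Cd2, the other rodent receptor for CD48 and a gene best known from T cells, was highest in the MacA gate. It had 336, 352 and 221 FPKM in MacA-2wk libraries and 461, 439 and 409.8 FPKM in MacA-N libraries, against 23.7, 20.8 and 54.1 FPKM in MacB1-N libraries and at most 14.3 FPKM in any MacB2 or MacB3 library. In MacB3-2wk against MacA-2wk cells its log2 fold change was -6.05 ± 0.37 (SE; limma, adjusted p = 6.6e-10). A sum of 14 T cell markers was 4.51 to 13.97 FPKM in MacA-2wk and 5.35 to 8.49 FPKM in MacA-N libraries, and Cd3e averaged 2.48 and 1.03 FPKM there. The part of T cells in the level of Cd2 was not tested. Both receptor genes were low in MacB3 cells, at 9.75 FPKM of Cd244 and 3.81 FPKM of Cd2 in MacB3-3wk cells.

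**Figure D3:**
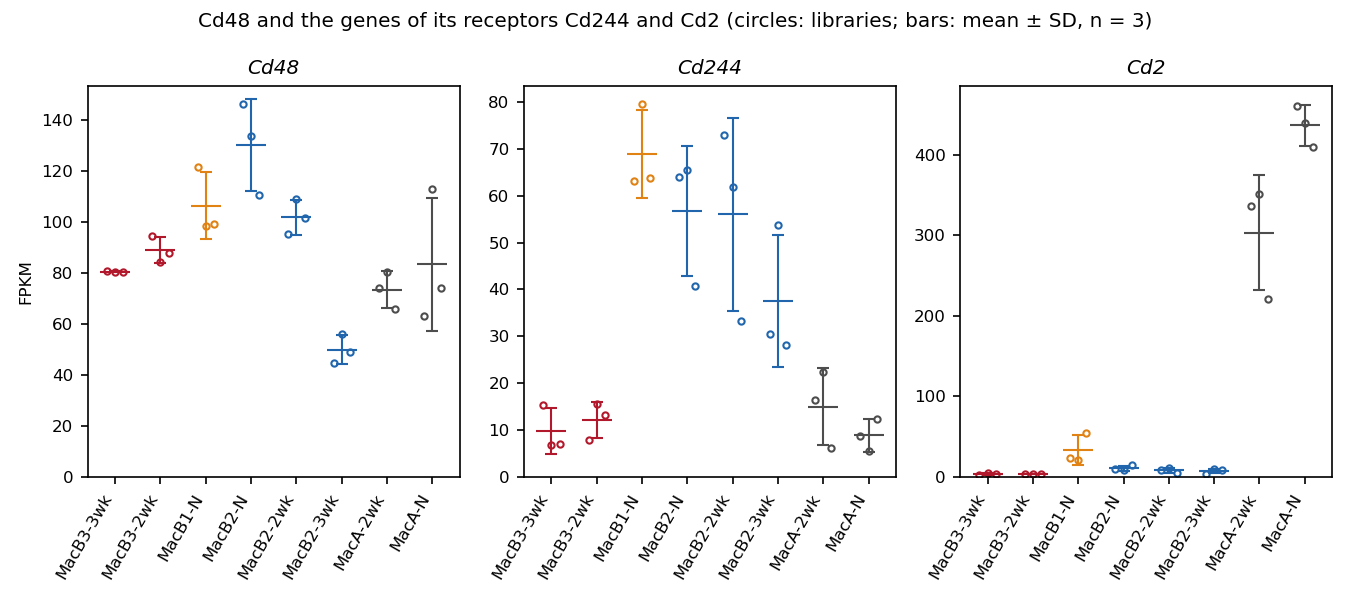
FPKM of Cd48 and the genes of its receptors Cd244 and Cd2 in each library (open circles), with the mean and SD of each group of 3 (horizontal and vertical bars). Cd48 is present in all groups, Cd244 is highest in MacB1-N and the MacB2 groups, and Cd2 is at 221 to 461 FPKM in the 6 MacA libraries and at most 54.1 FPKM elsewhere.

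The SLAM genes lie on chromosome 1 of GRCm38 (positions from GENCODE M21, matched by Ensembl identifier). A run of 7 neighbours (Cd244, Ly9, Slamf7, Cd48, Slamf1, Cd84 and Slamf6) falls in 394 kb, from 171559193 to 171953170, and Slamf9 (172475358 to 172478575) and Slamf8 (172581758 to 172590568) follow after a gap of 522 kb. Cd72 is on chromosome 4 (43446462 to 43454628, minus strand). The log2 differences between MacB3-2wk and MacB2-2wk cells were -2.09 for Cd244 and 1.12 for Ly9, which overlap, and 3.37 for Slamf9 and 0.05 for Slamf8, which are 103 kb apart with 4 other protein-coding genes between them. Ly9 lies wholly within the span of Cd244 on the opposite strand in that annotation, 18787 bp in all, while the deposited intervals of the genes do not overlap. 

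**Figure D4:**
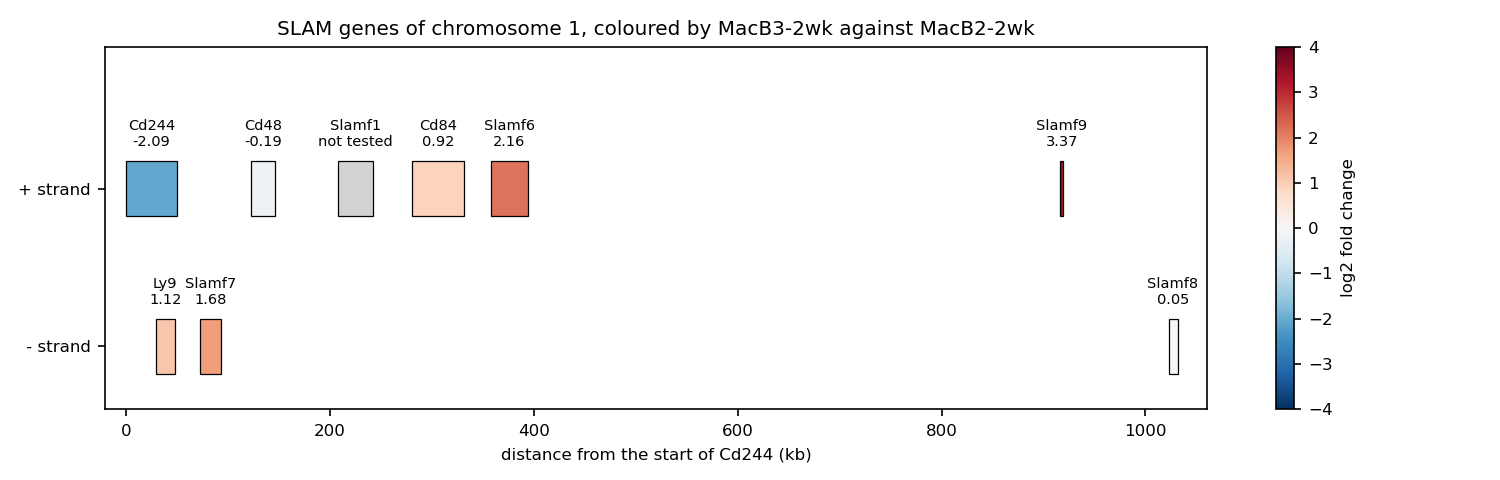
The 9 SLAM genes of mouse chromosome 1, drawn to scale as boxes on their strand against distance in kb from the start of Cd244, coloured by the log2 fold change of MacB3-2wk over MacB2-2wk cells (printed above each box). Values run from -2.09 (Cd244) to 3.37 (Slamf9), and Slamf1 is grey because it was not tested.

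Of the family genes outside the 8, Slamf1 averaged at most 0.5295 FPKM in any group and failed the filter, and Slamf6 (Ly108) is a self-binding receptor of lymphocytes. Slamf6 averaged 10.8 ± 1.28 FPKM in MacB3-2wk cells, against 1.65 ± 0.451 FPKM in MacB2-2wk cells (SD, n = 3 each; log2 fold change 2.16 ± 0.32, SE; limma, adjusted p = 0.000228). It averaged 4.71 ± 0.275 FPKM in MacB3-3wk cells, against 1.14 ± 0.528 FPKM in MacB2-3wk cells (limma, adjusted p = 0.0149), a call lost without MacB2-3wk replicate 1 or 3 or MacB3-3wk replicate 3 (adjusted p of up to 0.0718). The MacA groups were on average as high as MacB3-2wk, at 10.7 ± 5.85 FPKM in MacA-2wk and 10.97 ± 2.904 FPKM in MacA-N cells (SD, n = 3 each). The MacA-2wk libraries were uneven, at 14.14, 14.06 and 3.97 FPKM, the last being the replicate with the lowest protein-coding share. With Slamf6, the 9-gene family had 3 higher and 1 lower of 8 tested in MacB3 against MacB2 cells at each stage, where 3.15% of all genes were called higher and 4.21% lower at 2 weeks, and 1.61% higher and 1.03% lower at 3 weeks.

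The adaptors and effectors of SLAM signalling were examined as 17 genes, of which 15 passed the filter. None of the 15 was called in MacB3-2wk against MacB2-2wk cells in limma, where 7.36% of all genes were called. An unadjusted p below 0.05 was reached by 2 of the 15 (Fyn and Plcg2) and by 24.6% of all genes. The median log2 difference of the list was 0.093, against -0.075 over all genes. At 3 weeks 1 was called, where 1.61% of all genes were called higher. That gene was Sh2d1b1 (EAT-2), named after its values were seen, at 6.51, 5.25 and 6.72 FPKM in MacB3-3wk against 1.19, 1.58 and 2.24 FPKM in MacB2-3wk libraries (log2 fold change 1.44 ± 0.28, SE; limma, adjusted p = 0.0061). Its main place was elsewhere: it averaged 74.7 ± 13.9 FPKM in MacA-2wk and 72.7 ± 10.5 FPKM in MacA-N cells and 17.3 ± 4.57 FPKM in MacB1-N cells (SD, n = 3 each). In MacB3-2wk against MacA-2wk cells it was lower (-4.02 ± 0.28, SE, log2 scale; limma, adjusted p = 5.16e-09). The adaptor was highest in the MacA cells, where Slamf7 was lowest. The transcript of SAP, Sh2d1a, and the second EAT-2 gene, Sh2d1b2, failed the filter. The highest genes of the list, Fcer1g and Tyrobp, which encode signalling chains of activating receptors, averaged 8039 and 945 FPKM in MacB3-2wk cells, against 6031 and 1047 FPKM in MacB2-2wk cells, without a call (limma, adjusted p = 0.483 and 0.896).

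Among 19 other receptors of myeloid cells with inhibitory tails, all tested, 4 were called higher and 2 lower in MacB3-2wk than in MacB2-2wk cells, where 3.15% and 4.21% of all genes were. Fcgr2b, the inhibitory receptor for IgG, had 1326, 1259 and 1456 FPKM in MacB3-2wk libraries, against 567, 389 and 557 FPKM in MacB2-2wk libraries (log2 fold change 1.43 ± 0.399, SE; limma, adjusted p = 0.0267, and up to 0.108 over 12 settings, 4 of which lost the call). The others called, named after their values were seen, were Cd200r1, Cd22 and Lair1 (higher) and Cd300a and Ceacam1 (lower). Of these, Lair1 and Ceacam1 kept their calls in all 12 settings, while Cd300a lost its call in 4 (each without MacB2-2wk replicate 1 or 3 or MacB3-2wk replicate 2 or 3; adjusted p of up to 0.0871 in limma), Cd200r1 in 3 (without MacB2-2wk replicate 2 or MacB3-2wk replicate 2, or the compared groups alone; up to 0.113) and Cd22 in 1 (the compared groups alone; 0.0694). Cd22, like Cd72 a receptor best known from B cells, averaged 6.03 ± 1.78 FPKM in MacB3-2wk and 1.49 ± 0.655 FPKM in MacB2-2wk cells (SD, n = 3 each), and was highest in the MacA-N cells, at 38.3 FPKM. Sirpa, Pilra and Lilrb4, the other leading genes of the list by level, were not called, with log2 differences of 0.63, 0.93 and 0.09. The log2 difference of Cd72, 4.46, was larger than that of any of the 19. Cd72 is taken as chosen for its level, so that rank is a description and follows in part from the choice.

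Across the 24 libraries the members paired differently. On log2(FPKM + 1), Pearson's r between Cd72 and Slamf7 was 0.807, and between Slamf7 and Slamf8 it was 0.895, whereas it was -0.689 between Slamf9 and Cd244 and -0.013 between Cd72 and Cd84. Within the family, Cd84 was nearest to Slamf6, with r of 0.809. These are descriptions over libraries that share groups, lanes and depth. Among 13085 protein-coding genes, those most like Cd72 in this measure were Zmynd15 (0.967), Fcrls (0.944) and Cxcl16 (0.943). The nearest to Slamf9 were Bcl2a1b (0.936), Itgax (0.921) and Mtss1 (0.901), Itgax being the gene of the CD11c used for sorting. Slamf7 was nearest to Nfatc2 (0.974), B4galt6 (0.954) and Lacc1 (0.953), and Slamf8 to Tlr9 (0.962), Ms4a6c (0.961) and Ms4a6b (0.96). Cd244 was nearest to Itpr1 (0.927), Serpinb10 (0.924) and Trps1 (0.918), and Cd84 to Lamp1 (0.923), Slc7a7 (0.917) and Tmed10 (0.915). The nearest genes of Cd48 and Ly9 were less alike, with Serinc3 (0.871) and Tmem50a (0.841) for Cd48 and Trim14 (0.873), Psap (0.786) and Cyth4 (0.784) for Ly9.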

How the data were processed

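RNA was sequenced from 24 libraries of sorted lung cells, 3 in each of 8 groups, each a pool of 3 to 5 mice. The deposited table holds FPKM values for 37979 genes. Its header names no unit, and FPKM is taken from the tools in the submitters' processing notes (FastQC, TopHat2 2 and Cufflinks 2.0.2 on mm10), so the authors aligned with TopHat2 and quantified with Cufflinks per those notes. Amplification used the NuGen Ovation Human FFPE kit with mouse rRNA oligos, per the labels' protocols. FPKM keeps no read counts, and the number of libraries limits the precision. Because the labels tie replicates to separate pools only by number, p-values measure the spread between these libraries.

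From these values, log2(FPKM + 1) was fitted with limma 3.58.1 (R 4.3.3), with a mean for each of 8 groups, 16 residual degrees of freedom and a trend in the prior variance. The fit covered the 17156 genes whose group mean reached 1 FPKM somewhere, and p-values were Benjamini-Hochberg adjusted over them. There were 11 comparisons and 2 interactions. The fit was tested on simulated data. Tables and figures were made in Python 3.11.15 with pandas 2.3.3 and matplotlib 3.10.9. The design text gives a different week for 1 MacB3 group than the sample titles, and the titles were followed. The deposited start of none of the 11 family genes equalled its GENCODE M21 start on GRCm38. Only starts were compared, and a difference of assembly was not tested. Positions are from GENCODE M21 and promoters from RefSeq. The members and gene lists were chosen with earlier results of these data known. Besides the members, the text names up to 4 genes of each list (those highest over all libraries), the 3 genes most correlated with each member (1 of those for Cd48 is not reported here), sorting markers, and markers of other cell types, with Sema4d, Slamf1, Slamf6 and Cd2 added for their role and others chosen after their values were seen. Alternatives were a pseudocount of 0.1, no filter, quantile normalization, median-ratio scaling, the compared groups alone, the replicate number as a block, and leaving out each library. Among MacB groups the replicate number is also the sequencing lane, so a fit with the replicate number as a block was tried beside the fit without it. Same-numbered libraries deviated from their group means with correlations of -0.0726 to 0.21 over all comparisons, and of 0.0305 to 0.21 between MacB1-N and MacB2-N.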

Additional observations from a re-analysis of the deposited data

How the results depend on the processing

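Of 38 called differences of the SLAM genes and Cd2, 26 kept their call in all 12 alternative settings, 12 lost it in at least 1, and none changed sign. Of 27 differences that were not called but had an unadjusted p below 0.05, 6 were called in at least 1 setting, and none changed sign. Fitting the compared groups alone gave 4 called genes for MacA-2wk against MacA-N (135 as reported), 268 for MacB1-N against MacB2-N (893), 37 for MacB2-2wk against MacB2-N (323), 1680 for MacB2-3wk against MacB2-N (2524), 1634 for MacB3-2wk against MacA-2wk (2484), 648 for MacB3-2wk against MacB2-2wk (1263), 26 for MacB3-3wk against MacB3-2wk (54), 13 for the tumour interaction (38) and 4 for the week interaction (0). A pseudocount of 0.1 gave 238 for MacA-2wk against MacA-N, 19 for MacB3-3wk against MacB3-2wk and 89 for the tumour interaction. It also called Slamf8 higher in MacA-2wk than in MacA-N cells (2.43, limma, adjusted p = 0.00164) and Slamf7 in the tumour interaction (-2.66, adjusted p = 0.0267). With no filter the tumour interaction had 23 calls and the week interaction 1. Quantile normalization gave 27 for MacB3-3wk against MacB3-2wk. It moved the split of higher and lower calls to 1930 and 2161 (2572 and 1495 as reported) for MacB1-N against MacA-N, to 423 and 422 (601 and 292) for MacB1-N against MacB2-N, to 209 and 71 (284 and 39) for MacB2-2wk against MacB2-N, to 1374 and 1234 (1659 and 865) for MacB2-3wk against MacB2-N, to 1839 and 1711 (1427 and 2254) for MacB3-2wk against MacB1-N, to 676 and 527 (541 and 722) for MacB3-2wk against MacB2-2wk, and to 21 and 6 (48 and 6) for MacB3-3wk against MacB3-2wk. It shifted the median of all genes by -0.148, -0.111 and 0.121 on the log2 scale in MacB1-N against MacA-N, MacB1-N against MacB2-N, and MacB3-2wk against MacB1-N. Leaving out 1 library gave 87 to 244 calls for MacA-2wk against MacA-N, 606 to 1393 for MacB1-N against MacB2-N, 136 to 292 for MacB2-2wk against MacB2-N, 297 to 384 for MacB3-3wk against MacB2-3wk, 11 to 38 for MacB3-3wk against MacB3-2wk, 17 to 57 for the tumour interaction and 0 to 3 for the week interaction. The replicate block lost no SLAM call and moved 1 count by more than 1.5 times, that of the tumour interaction, to 24. Apart from the alternatives' own construction, the cause of these shifts was not tested. Depth limits low values, which a pseudocount of 1 draws towards 0.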
